A study of Mus musculus with 2 samples.

Results

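The genes described are 7 genes of the MHC class II presentation machinery, taken by symbol: the chain genes H2-Aa, H2-Ab1 and H2-Eb1, the invariant chain gene Cd74, the H2-DM genes H2-DMa and H2-DMb1, and the transactivator gene Ciita. All 7 were present among the 17758 genes of the single-cell table and among the 16906 genes of the bulk table. The study profiled peripheral mouse lung at postnatal day 3 in 1 sample of each of 2 kinds, both labelled as control lungs. One was a 10x Chromium 3′ v3 single-cell library made from sorted wild-type cells. The other was bulk RNA-seq of cells sorted as PDGFRA+ from Pdgfra-H2BGFP lung, whose Pdgfra locus drives a histone-fused fluorescent reporter in nuclei of cells that use that promoter. Whether animals were pooled is not stated, and neither group had a replicate, so no test between groups was possible and intervals speak to counting error alone.

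MHC class II molecules display peptides from endocytosed proteins to CD4+ T cells. The alpha and beta chains (H2-Aa with H2-Ab1, and the E beta chain H2-Eb1) assemble in the endoplasmic reticulum with the invariant chain Cd74, which is cut away in the endosome by proteases such as cathepsin S. The H2-DM heterodimer (H2-DMa with a DM beta chain) then exchanges the remaining invariant chain fragment for peptide, and transcription of the whole set depends on Ciita, a co-activator that is recruited by factors bound at the X and Y boxes of the promoters. Professional antigen-presenting cells such as dendritic cells and B cells express these genes constitutively, and in the lung alveolar type 2 cells are known for class II expression as well.

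The promoters of 2 chain genes and of H2-DMb2, the second DM beta gene, are shown because they hold matches to letters of the X or Y box. The sequences are from RefSeq on GRCm38.p6 and stop before the RefSeq transcript starts. They are written 5′ to 3′ on the gene's strand, and the capitals mark the Y box letters GATTGG on either strand, the X box core AACNGATGA, and TGACGTCA. These motifs were searched on both strands and do not overlap each other.
H2-Aa, chr17:34287824-34287953, minus strand: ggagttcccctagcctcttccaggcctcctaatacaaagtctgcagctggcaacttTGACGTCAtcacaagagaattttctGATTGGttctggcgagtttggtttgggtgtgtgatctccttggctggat
H2-Eb1, chr17:34305737-34305866, plus strand: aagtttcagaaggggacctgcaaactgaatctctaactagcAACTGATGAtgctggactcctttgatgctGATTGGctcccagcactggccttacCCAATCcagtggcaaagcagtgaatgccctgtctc
H2-DMb2, chr17:34145119-34145235, plus strand: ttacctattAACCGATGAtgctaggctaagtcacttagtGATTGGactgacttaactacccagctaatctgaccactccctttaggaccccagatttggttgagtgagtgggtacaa

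In H2-Eb1 the X core and the Y box lay 20 bases apart, and in H2-DMb1 and H2-DMb2 they lay 21 bases apart. In H2-DMb1 the X core began 92 bases before the RefSeq start site and the Y box 62 bases before it, at a position that GENCODE M21 places inside the first exon. GENCODE M21 starts H2-DMb2 at position 34143307, so the stretch shown for that gene also lies inside the gene as annotated there. H2-Aa held no match to the X core letters and had TGACGTCA 17 bases before its Y box. Of 32851 promoter windows of 300 bases, 16.1% held the Y letters, 0.648% the X letters and 0.103% both, while 1.79% held TGACGTCA and 0.32% held it together with the Y letters. Of the 2 windows listed for H2-DMa, 1 had none of the motifs and the other had the Y letters 199 bases before the start. A match describes letters in this window and is not a measured binding site. Of the 7 genes, 4 had an entry in the promoter table. H2-Ab1, Ciita and the invariant chain gene had none.

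H2-Aa, H2-Ab1, H2-Eb1, H2-DMa and H2-DMb1 lie within 197 kb of the MHC on chromosome 17 (GENCODE M21, mm10), between positions 34119541 and 34316674. H2-Eb1 overlaps an antisense gene (Gm20513), H2-DMa overlaps Brd2 and an antisense gene on the other strand and a further gene of the antisense type on its own strand, and Ciita, on chromosome 16 at 10480059 to 10528418, overlaps Dexi. Strand use in the counting is not given, so reads of such partners may not be separable. H2-DMb1 and H2-DMb2 are close copies, and how reads were divided between them is not known.

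The single-cell table held 11306 cells, of which 10138 were kept, with a median of 5537 depth-corrected UMIs (a 1.79-fold span) and 2012 detected genes per cell. The bulk table held 171910584 reads. Single-cell levels are sums of depth-corrected UMIs over a class, brought to a common total of 1000000 (CPM), and carry no interval. Shares are percentages of cells with at least 1 UMI, with exact Clopper-Pearson 95% intervals. Classes were rebuilt by clustering and named by their markers, hence "-like". There were 320 B-like, 126 dendritic-like, 1276 alveolar macrophage-like, 399 interstitial macrophage-like, 739 monocyte-like (310 classical and 429 non-classical), 399 alveolar type 2-like and 980 endothelial-like cells. Of the markers used for naming, 7 of 7 in B-like and 8 of 8 in alveolar type 2-like cells were at least 1 log2 unit above all other cells. So were 21 of 24 in dendritic-like, 6 of 7 in interstitial macrophage-like and 7 of 7 measured in alveolar macrophage-like cells. In monocyte-like cells 10 of 12 were, and in endothelial-like cells 19 of 24. The dendritic-like class was 1 cluster, named for conventional dendritic cells of type 2. Its 24 markers also hold the lists for type 1, mature and plasmacytoid dendritic cells, for which no cluster was named. The same marker lists were used in naming, so these counts do not check the names. The member and pathway genes took no part in the clustering.

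Dendritic-like cells had the highest level of each of the 7 genes among the classes described. B-like, interstitial macrophage-like and alveolar type 2-like cells came next for the chains, Cd74 and Ciita. Alveolar macrophage-like and monocyte-like cells carried H2-DMa and H2-DMb1 with chain levels near those of cells that do not present antigen on class II. Endothelial-like cells were lowest or next to lowest for H2-Aa, H2-Eb1, H2-Ab1, Cd74 and the H2-DM genes.

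**Figure D1:**
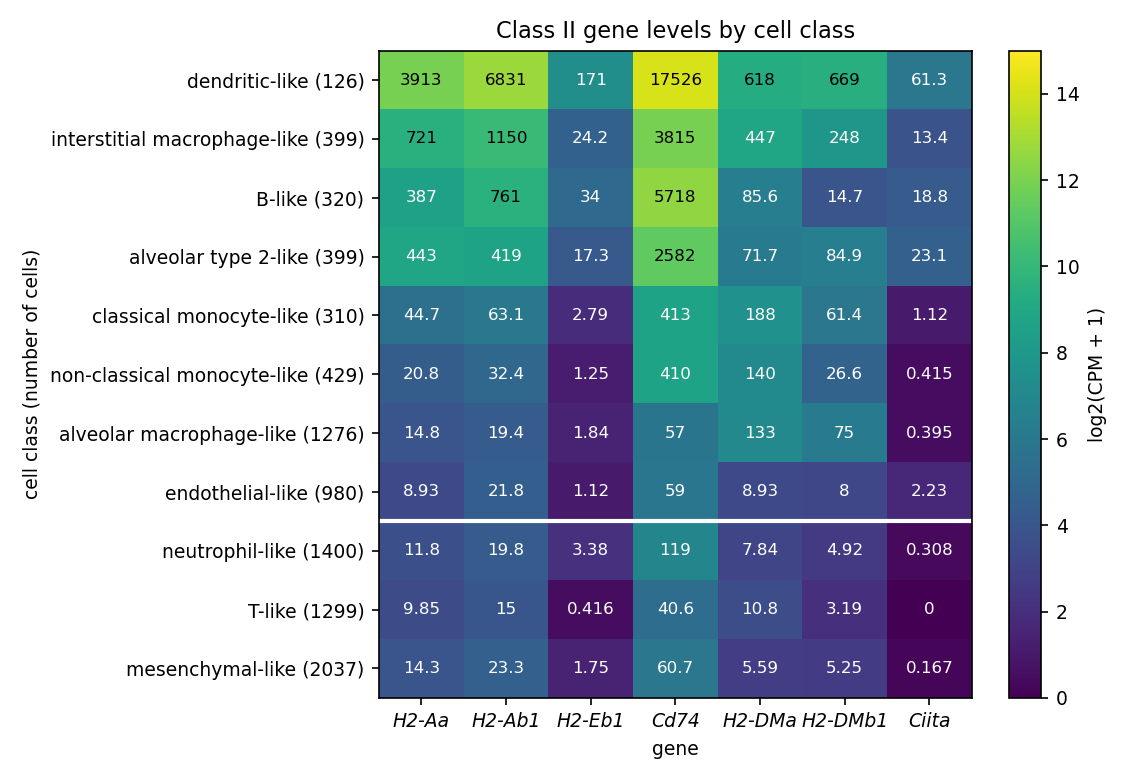
Level of each of the 7 genes (columns) in 8 cell classes of interest and, under the white line, 3 comparison classes, with the number of cells in brackets. Colour is log2(CPM + 1) and the number printed is the CPM; there is 1 library, so no error is drawn. The dendritic-like row is the highest in every column, and Cd74 runs from 40.6 CPM in T-like to 17526.5 CPM in dendritic-like cells.

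The background was taken from 22 clusters of neutrophil-like, T-like, NK-like, ILC2-like, mesenchymal-like, mesothelial-like and endothelial-like cells. They had a median of 11.5 CPM of H2-Aa (0 to 26), 19.4 of H2-Ab1 (8.58 to 54.3) and 63.1 of Cd74 (27.6 to 139). For H2-DMa the median was 7.37 CPM (2.3 to 32.6), for H2-DMb1 5.14 (1.17 to 32.6), for H2-Eb1 1.3 (0 to 9.22), and for Ciita 0 (0 to 3.36). Single cells weigh on these sums: 1 NK-like cell held 53 of the 98 H2-Ab1 UMIs of its class, and 1 mesenchymal-like cell 39 of 279. The parts of free RNA and of mixed droplets in the ranges were not tested. Levels within these ranges are read as background, and a small step above them may rest on few cells. The endothelial-like clusters are part of these 22, so their own levels cannot be read against them. Without them, which was added after seeing the data, the highest of the other 16 clusters was 26 CPM for H2-Aa, 52.6 for H2-Ab1, 9.22 for H2-Eb1, 139 for Cd74, 20 for H2-DMa, 10 for H2-DMb1 and 1.17 for Ciita. Taken as 1 class, endothelial-like cells were above that limit for Ciita, at 2.23 CPM, and not for the other 6. The Ciita limit itself rests on 1 UMI. By cluster, H2-DMb1 was above its limit in aerocyte-like (12.4 CPM), both large vessel (12.5 and 18.5) and lymphatic cells (32.6). It was not in the general capillary clusters (2.94 and 3.44). The 32 lymphatic cells were also above the limit for H2-DMa, at 32.6 CPM, and for H2-Ab1, at 54.3 CPM. Sftpc, the alveolar type 2 surfactant gene, stood at 214559.8 CPM in alveolar type 2-like cells and at 296 CPM in dendritic-like, 411 in interstitial macrophage-like and 756 in B-like cells, which gives a measure of alveolar type 2 RNA in the other classes.

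H2-Aa, the A alpha chain, was at 3913.3 CPM in dendritic-like, 721 in interstitial macrophage-like, 443 in alveolar type 2-like and 387 in B-like cells. It was at 31 CPM in monocyte-like, 14.8 in alveolar macrophage-like and 8.93 in endothelial-like cells. Alveolar macrophage-like cells lie within the background range. Monocyte-like cells lie just above it through the classical cluster (44.7 CPM, with a UMI in 6.45% of cells, 3.99 to 9.79), where 1 cell held 20 of the 80 UMIs. The non-classical cluster was inside the range at 20.8 CPM. H2-Aa was found in 84.9% of dendritic-like (95% interval 77.5 to 90.7), 85.5% of alveolar type 2-like (81.6 to 88.8), 40% of B-like (34.6 to 45.6) and 35.6% of interstitial macrophage-like cells (30.9 to 40.5). Dendritic-like and alveolar type 2-like cells thus had overlapping shares of positive cells, while the median UMI count of a positive cell was 31 in the former and 3 in the latter. In T-like cells, which should lack the gene, the share was 4.16% (median 1670 detected genes, against 2215 in dendritic-like and 2193 in alveolar type 2-like cells).

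H2-Ab1, its beta partner, was at 6831.4 CPM in dendritic-like, 1149.8 in interstitial macrophage-like, 761 in B-like and 419 in alveolar type 2-like cells. Monocyte-like cells had 45.5 CPM, with the classical cluster above the background range at 63.1 (8.39% of cells, 5.55 to 12) and the non-classical inside it at 32.4. In the classical cluster 1 cell held 37 of the 113 UMIs. Its share of positive cells was close to the 8.38% of ILC2-like cells, so the step above the range rests on few cells. Endothelial-like cells had 21.8 CPM and alveolar macrophage-like cells 19.4, inside the range. The order of B-like and alveolar type 2-like cells differed between the partners: B-like cells had 0.509 H2-Aa UMIs for each H2-Ab1 UMI, against 1.06 in alveolar type 2-like, 0.573 in dendritic-like and 0.627 in interstitial macrophage-like cells. Positive cells made up 83.3% (75.7 to 89.4) of dendritic-like, 70.7% (65.9 to 75.1) of alveolar type 2-like, 52.8% (47.2 to 58.4) of B-like and 38.8% (34 to 43.8) of interstitial macrophage-like cells, and 6.62% of T-like cells.

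H2-Eb1, the E beta chain, was found at 171 CPM in dendritic-like, 34 in B-like, 24.2 in interstitial macrophage-like and 17.3 in alveolar type 2-like cells. These 4 of the 7 classes stood above the background range, and monocyte-like cells did not, at 1.9 CPM. Its share was 60.3% (51.2 to 68.9) in dendritic-like, 14.4% (10.7 to 18.7) in B-like, 11% (8.13 to 14.5) in interstitial macrophage-like and 10.5% (7.69 to 14) in alveolar type 2-like cells. The last 3 intervals overlap. In T-like cells it was 0.231%.

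Cd74, the invariant chain, reached 17526.5 CPM in dendritic-like, 5718.4 in B-like, 3814.7 in interstitial macrophage-like and 2582.4 in alveolar type 2-like cells. Monocyte-like cells also stood above the background range, at 413 CPM in the classical and 410 CPM in the non-classical cluster. Alveolar macrophage-like cells had 57 CPM, inside the range, and endothelial-like cells 59. A Cd74 UMI was found in 98% (96.1 to 99.1) of alveolar type 2-like, 95.2% (89.9 to 98.2) of dendritic-like, 87.2% (83 to 90.6) of B-like, 71.9% (67.2 to 76.3) of interstitial macrophage-like and 53.6% (49.9 to 57.2) of monocyte-like cells, against 14.5% (12.6 to 16.5) of T-like and 21.3% (19.2 to 23.5) of neutrophil-like cells. The amount per cell was even in alveolar type 2-like cells, with a median of 15 UMIs and 5 and 27 at the 10th and 90th percentiles. It was uneven in interstitial macrophage-like cells, with a median of 2 and a 90th percentile of 93. Monocyte-like cells had 9.04 Cd74 UMIs per H2-Ab1 UMI and B-like cells 7.51, against 2.57 in dendritic-like cells.

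**Figure D2:**
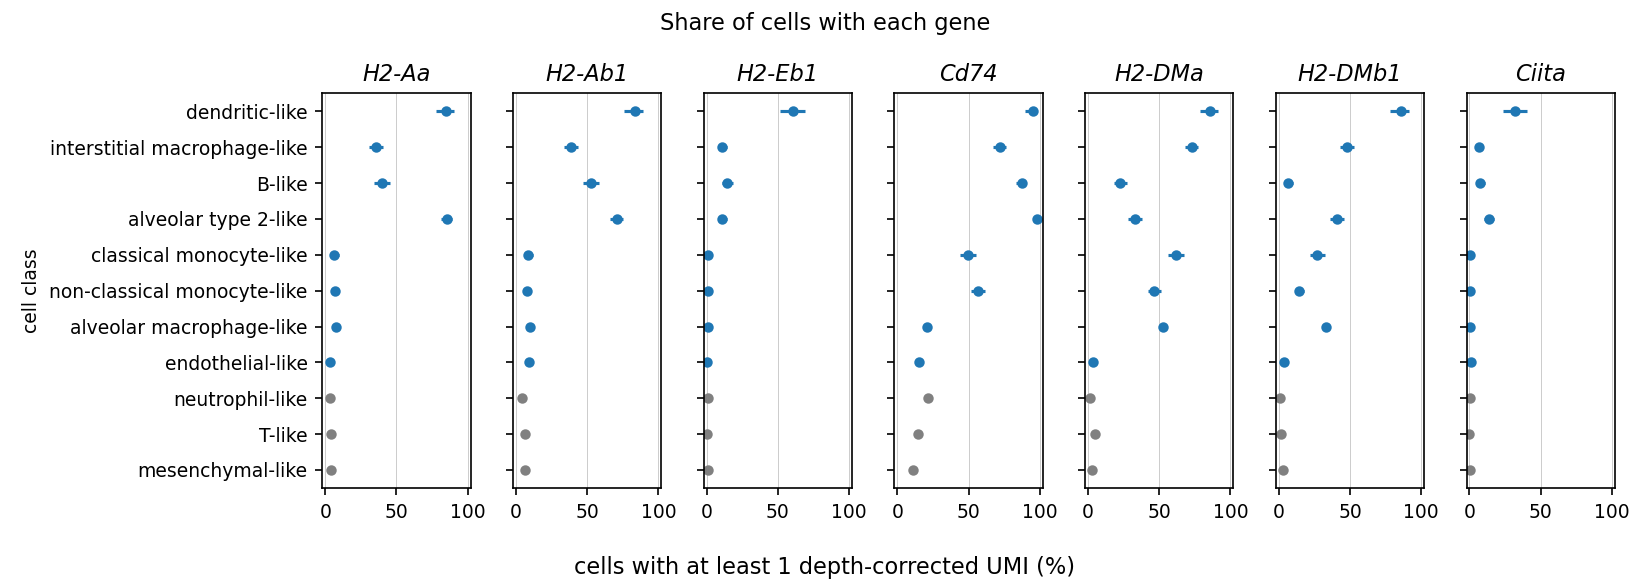
Percentage of cells with at least 1 depth-corrected UMI of each gene (one panel per gene, class on the vertical axis), with exact 95% binomial intervals as bars; grey points are comparison classes. The 3 comparison classes sit below 7% for the chains, while Cd74 is found in 11.2% to 21.3% of their cells.

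H2-DMa, the alpha chain of the peptide editor, was at 618 CPM in dendritic-like and 447 in interstitial macrophage-like cells, followed by 161 in monocyte-like and 133 in alveolar macrophage-like cells. B-like cells had 85.6 CPM, alveolar type 2-like 71.7 and endothelial-like 8.93. All but the endothelial-like class stood above the background range, with or without the endothelial-like clusters in it. H2-DMb1, its beta partner, was at 669 CPM in dendritic-like, 248 in interstitial macrophage-like, 84.9 in alveolar type 2-like and 75 in alveolar macrophage-like cells. Monocyte-like cells had 41.4 CPM of it, B-like cells 14.7 and endothelial-like cells 8. The upper limit of 32.6 CPM for H2-DMb1 comes from the 32 lymphatic endothelial-like cells. B-like cells lie under it but above the 10 CPM of the highest of the 16 other clusters.

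The H2-DM genes were therefore spread over the macrophage-like and monocyte-like classes in a way the chains were not. Neutrophil-like cells, whose clusters are part of the background, had 7.84 CPM of H2-DMa and 4.92 of H2-DMb1. An H2-DMa or H2-DMb1 UMI with no UMI of H2-Aa, H2-Ab1 or H2-Eb1 occurred in 55% (52.2 to 57.8) of alveolar macrophage-like and 51.6% (47.9 to 55.2) of monocyte-like cells. The same state was found in 38.3% (33.6 to 43.3) of interstitial macrophage-like, 9.52% (5.02 to 16) of dendritic-like, 1.75% (0.708 to 3.58) of alveolar type 2-like and 0.938% (0.194 to 2.72) of B-like cells, and in 4.12% (3.3 to 5.08) of mesenchymal-like cells. There were 6.85 H2-DMa UMIs per H2-Ab1 UMI in alveolar macrophage-like, 4.33 in non-classical and 2.98 in classical monocyte-like cells. In dendritic-like cells the ratio was 0.0905, and in T-like and mesenchymal-like cells 0.722 and 0.24.

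**Figure D3:**
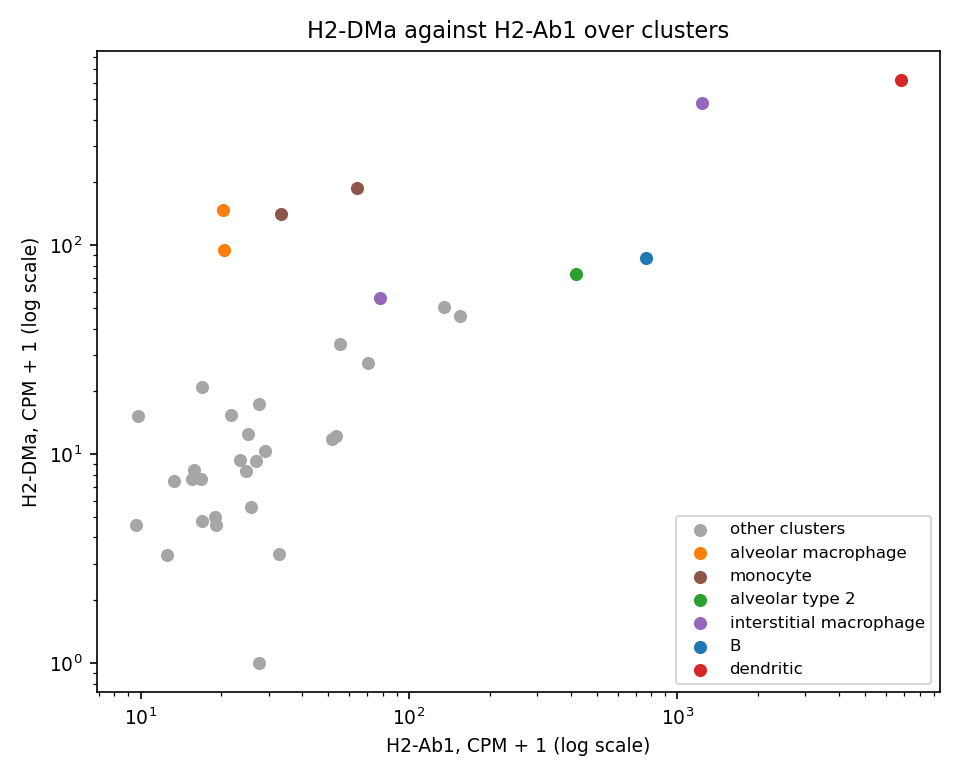
H2-DMa against H2-Ab1, each as CPM + 1 on a log axis, over the 36 clusters (points); colours mark the classes described and grey all other clusters. The 2 alveolar macrophage-like clusters combine 146 and 93.5 CPM of H2-DMa with 19.3 and 19.5 CPM of H2-Ab1, to the left of the B-like and alveolar type 2-like clusters at similar or lower H2-DMa.

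B-like cells had the DM beta genes in the opposite proportion to the other classes. H2-DMb2 was at 114 CPM in B-like cells against 14.7 CPM of H2-DMb1, a ratio of 7.8. The ratio was 0.154 in dendritic-like, 0.214 in interstitial macrophage-like, 0.295 in alveolar macrophage-like, 0.494 in monocyte-like and 0.121 in alveolar type 2-like cells. The sum of the DM beta genes does not change if reads were divided between these copies, but does if reads matching both were left out. Which was done is not known, and the split itself is uncertain.

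Ciita, the transactivator, was at 61.3 CPM in dendritic-like, 23.1 in alveolar type 2-like, 18.8 in B-like and 13.4 in interstitial macrophage-like cells. It was at 0.714 CPM in monocyte-like (3 UMIs) and 0.395 in alveolar macrophage-like cells (3 UMIs). The 4 classes with the highest Ciita levels were also the 4 with the highest H2-Aa, H2-Ab1 and H2-Eb1 levels among the classes described. Its share of positive cells was 31.7% (23.7 to 40.6) in dendritic-like, 13.5% (10.3 to 17.3) in alveolar type 2-like, 7.19% (4.61 to 10.6) in B-like and 6.52% (4.3 to 9.4) in interstitial macrophage-like cells. General capillary endothelial-like cells had 10 UMIs (3.07 CPM, 1.53% of 587 cells, 0.703 to 2.89) with H2-Aa at 8.3 CPM. In T-like cells none of 1299 cells had a Ciita UMI, which allows up to 0.231% of cells with a UMI and sets no limit on cells that express the gene. Alveolar type 2-like cells held 28.9% of all Ciita UMIs of the library and dendritic-like cells 24.2%, whereas dendritic-like cells held 44.9% of the H2-Ab1 UMIs and alveolar type 2-like cells 8.71%.

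Set against all other kept cells and with 1 CPM added to both sides, all 7 genes reached a log2 ratio of 1 or more in dendritic-like cells (median 4.96, range 3.30 to 5.87), where 5.99% of 15389 genes with at least 20 UMIs did so and the median of all of them was -0.44. None was at -1 or less there, against 28.2% of all genes. In interstitial macrophage-like cells all 7 again reached 1 (median 2.79), against 6.71% of all genes, and none was at -1 or less, against 20.5%. With the member and pathway genes among the clustering genes, however, this class held 103 cells in place of 399 and 0 of 7 reached 1. A sub-cluster of 61 cells had 5307.5 CPM of H2-Ab1, and 4 others had 75 to 356 CPM. In B-like cells 5 of 7 reached 1 (median 2.0), against 4.57% of all genes. H2-DMa did not, at 0.31, and H2-DMb1 was at -1.47, the single member among the 33.1% of genes at -1 or less. In alveolar type 2-like cells 6 of 7 reached 1 (median 1.32), against 12.6% of all genes. H2-DMa was at 0.05, and none was at -1 or less, against 26.3%.

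The remaining classes had most members below the other cells. In alveolar macrophage-like cells H2-DMa (1.14) and H2-DMb1 (1.03) reached 1, against 11.2% of all genes, and the other 5 members were at -1 or less, against 24.0%. H2-DMb1 lost that call with 10 CPM added, which left 1 member. With the member and pathway genes among the clustering genes the class grew to 1680 cells. Of the 5, 4 then turned to the other sign: H2-Aa was at 0.51, H2-Ab1 at 0.50, Cd74 at 0.21 and Ciita at 0.04. In monocyte-like cells H2-DMa (1.36) reached 1, against 5.81% of all genes, and 4 members were at -1 or less, against 31.5%. Cd74 was at -0.98 and H2-DMb1 at -0.00. In endothelial-like cells none reached 1, against 10.5% of all genes, and 6 were at -1 or less, against 19.2%, Ciita being the exception at -0.50. Since the cells compared against include the dendritic-like and B-like cells, a ratio below 0 does not separate a low level from background.

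The interstitial macrophage-like class was not uniform, and its boundary with alveolar macrophage-like cells depended on the clustering. Clustered alone, again without the member genes, it split into 7 sub-clusters, which were left unnamed. Sub-cluster 3 (61 cells) had 15957.6 CPM of Cd74, 5307.5 of H2-Ab1, 1073.9 of H2-DMa and 40.6 of Ciita, together with 3119 CPM of the complement gene C1qa. Its Cd74, H2-Ab1 and Ciita levels lay in the range of the dendritic-like sub-clusters. Its leading genes beyond the members were Plbd1, Ly6a, Tnip3, Ms4a4c and the interferon-inducible genes Irf7 and Isg15, in that order. Of these, Tnip3 is on the marker list used here for conventional dendritic cells of type 2. Sub-cluster 2 (73 cells), led by Ccl12, F13a1 and Stab1, had more C1qa, 5707.3 CPM, and 382 CPM of the vessel-associated macrophage marker Lyve1, with 836 CPM of Cd74, 83.6 of H2-Ab1 and 0 of Ciita. Sub-cluster 6 (31 cells), led by genes such as Timd4 and Cd5l, had 343 CPM of Cd74 and 75 of H2-Ab1 beside 4436.8 CPM of C1qa. Sub-clusters with high C1qa thus differed in class II level. By level, sub-clusters 2 and 6 were above the highest background cluster for Cd74, H2-Ab1 and H2-Aa (42.9 and 26.8 CPM). A Cd74 UMI was found in 83.6% and 51.6% of their cells. An H2-Aa UMI was found in only 4.11% and 6.45%, against 4.16% of T-like cells, so these H2-Aa levels rest on few cells. For H2-Ab1 the shares were 9.59% and 16.1%, against 6.62% of T-like cells.

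Sub-clusters 1 (106 cells) and 4 (54 cells) had little C1qa, 43.1 and 18.3 CPM, and 2589.5 and 2022.9 CPM of Ear2, so the data go against the class name for them. Sub-cluster 1 had 725 CPM of Cd74, 168 of H2-Ab1 and 383 of H2-DMa, and sub-cluster 4 had 4492, 1106.2 and 645. Sub-cluster 5 (50 cells, led by Gpnmb) had 1042.5 CPM of Cd74 and 356 of H2-Ab1. Sub-cluster 7 (24 cells) was led by T cell genes such as Cd8a and Trac and carried 212 CPM of Cd3e beside 3977.1 CPM of Cd74. The part of mixed droplets in it was not tested, and without it 7 of 7 members still reached 1. The class counts for these macrophages therefore hold for this clustering.

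**Figure D4:**
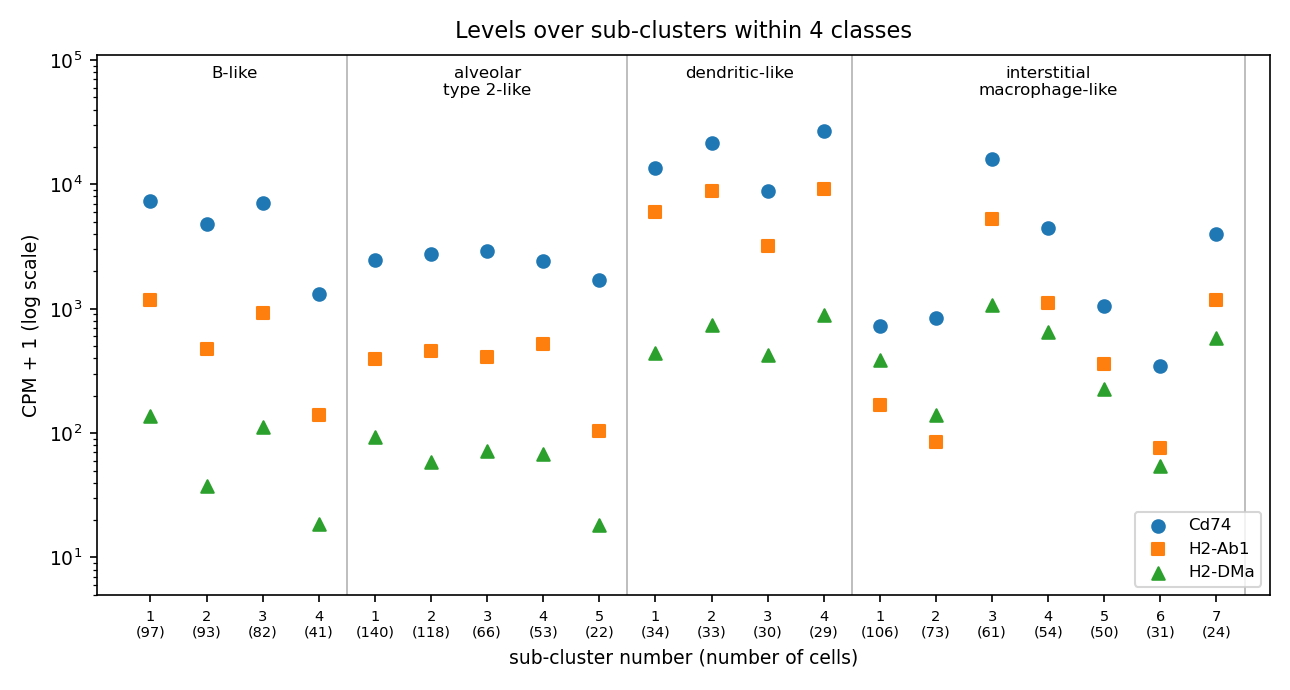
Cd74 (circles), H2-Ab1 (squares) and H2-DMa (triangles) as CPM + 1 on a log axis in each sub-cluster of at least 20 cells (number and cells on the horizontal axis) of 4 classes. Cd74 spans 343 to 15957.6 CPM within interstitial macrophage-like cells and 1715.2 to 2887.3 CPM within alveolar type 2-like cells.

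The dendritic-like class held 4 sub-clusters, all with class II transcripts. Sub-cluster 4 (29 cells), with 277 CPM of Cd209a, had 26651.9 CPM of Cd74 and 9236.1 of H2-Ab1. Sub-cluster 2 (33 cells), led by Cd207 and Xcr1, a receptor of cross-presenting dendritic cells, had 21397.3 and 8827.4. Sub-cluster 1 (34 cells), with 300 CPM of Siglech, a marker of plasmacytoid dendritic cells, had 13610.9 and 6055.2. Sub-cluster 3 (30 cells), led by Ccl1, Il4 and F13a1, was lowest with 8861.4 and 3187.5. Ciita was likewise lowest in sub-cluster 3 (32.9 CPM), with 48.4 in sub-cluster 1, 79.1 in sub-cluster 4 and 84.8 in sub-cluster 2. At a lower sub-cluster resolution, chosen after seeing the data, the lowest Cd74 level in this class was 15933.1 CPM.

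Among B-like cells, sub-cluster 4 (41 cells) was led by Vpreb1, Dntt and Igll1, genes of the surrogate light chain and of V(D)J joining in B cell precursors. It had 1308.3 CPM of Cd74, 140 of H2-Ab1, 96.3 of H2-Aa and 17.5 of H2-DMa. Sub-cluster 1 (97 cells), led by genes that include Fcer2a and Ccr6, had 7315.4, 1173.5, 621 and 136. Sub-cluster 3 (82 cells) was close to it with 7123.1 CPM of Cd74 and 918 of H2-Ab1. Sub-cluster 2 (93 cells) lay between, with 4771.7 CPM of Cd74 and 471 of H2-Ab1. B-like cells with precursor genes were thus the lowest B-like group of over 20 cells for Cd74 and H2-Ab1. The alveolar type 2-like sub-clusters differed less: 4 of the 5, among them 53 cells led by division genes such as Top2a, had 2403.6 to 2887.3 CPM of Cd74 and 397 to 516 of H2-Ab1. The other sub-cluster (22 cells), which carried neutrophil genes such as Retnlg, had 1715.2 and 104.

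Co-detection of H2-Aa, H2-Ab1 and Cd74 in 1 cell was found in 81% (73 to 87.4) of dendritic-like, 67.2% (62.3 to 71.8) of alveolar type 2-like, 37.2% (31.9 to 42.7) of B-like and 31.1% (26.6 to 35.9) of interstitial macrophage-like cells. It was found in 2.03% (1.14 to 3.33) of monocyte-like, 0.784% (0.376 to 1.44) of alveolar macrophage-like, 0.714% (0.288 to 1.47) of endothelial-like and 0.736% (0.413 to 1.21) of mesenchymal-like cells. The intervals of the last 3 overlap. Median detected genes were 2525 in alveolar macrophage-like and 2204 in endothelial-like cells, more than the 1461 in B-like cells, so the low shares went with no lower gene detection.

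The other class II chain genes marked dendritic-like and B-like cells among the classes described. H2-Oa, a chain of the H2-DO inhibitor of H2-DM, was at 73 CPM in dendritic-like and 67.4 in B-like cells and at 2.51 in interstitial macrophage-like cells. None of the 399 alveolar type 2-like cells had an H2-Oa UMI, which allows up to 0.752% of cells with a UMI. The share was 25.6% in B-like and 34.9% in dendritic-like cells. H2-Ob, the DO beta chain, was at 19.6 CPM in dendritic-like and 7.62 in B-like cells and at 0 in alveolar type 2-like cells. Of the 3 genes tested (with H2-DMb2), 3 reached a log2 ratio of 1 in both dendritic-like and B-like cells, against 5.99% and 4.57% of all genes. In interstitial macrophage-like cells 1 did and in alveolar type 2-like cells 0, against 6.71% and 12.6% of all genes. The factors that bind the X and Y boxes (Rfx5, Rfxap, Rfxank, Creb1, Nfya, Nfyb, Nfyc) varied little, by 0.78 (Rfxap) to 1.77 (Rfxank) in log2(CPM + 1) over the classes. None of the 7 reached 1 in dendritic-like, B-like, interstitial macrophage-like or alveolar type 2-like cells, where 4.57% to 12.6% of all genes did, so this count is near the background. In alveolar macrophage-like cells 1 of the 7, Nfya, did (1.18), against 11.2% of all genes.

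Genes that process the invariant chain and its cargo followed the macrophages more than the class II genes. Of 6 measured, 4 reached 1 in alveolar macrophage-like and in interstitial macrophage-like cells and 3 in monocyte-like cells, against 11.2%, 6.71% and 5.81% of all genes. In dendritic-like and B-like cells 0 of 6 did, which is near the 5.99% and 4.57% of all genes. Ctss, which encodes cathepsin S, was at 1832.6 CPM in interstitial macrophage-like, 1455.6 in alveolar macrophage-like, 664 in dendritic-like and 274 in B-like cells. In alveolar type 2-like cells Ctss was at 15.7 CPM in 4.76% of cells, less than the 12.8% of endothelial-like and 11.5% of mesenchymal-like cells, and so at background. In the same class 5 of 6 processing genes were at -1 or less, against 26.3% of all genes, Ctsb being at -0.97 with 181 CPM. Ctsd was at 125 CPM and Lgmn at 36.3 there.

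Co-stimulation and turnover genes separated alveolar type 2-like cells from the dendritic-like class. Of 6 measured, 4 reached 1 in dendritic-like cells, against 5.99% of all genes: Cd83 (1020.1 CPM), Cd86 (170 CPM), Cd40 (77 CPM) and Cd80 (35.2 CPM). Cd86, a ligand of CD28, was at 160 CPM in interstitial macrophage-like, 126 in monocyte-like and 45.1 in B-like cells. In alveolar type 2-like cells 5 of the 6 were at -1 or less, against 26.3% of all genes. Cd86 was at 0.412 CPM (0.251% of cells), Cd83 at 9.07 and Cd40 at 1.65 there. March1, a ubiquitin ligase that removes class II from the surface, was highest in monocyte-like cells at 83.3 CPM and at 0.412 CPM in alveolar type 2-like cells. The products of the MIF and MIF receptor genes act through Cd74. None of these 4 genes reached 1 in dendritic-like, B-like, interstitial macrophage-like or alveolar type 2-like cells. That count is again near the background of 4.57% to 12.6%. In monocyte-like cells Cxcr4 alone of the 4 reached 1, against 5.81% of all genes. Cd44 alone did so in alveolar macrophage-like cells, against 11.2%. In alveolar type 2-like cells 3 of the 4 were at -1 or less, against 26.3% of all genes. Cd44 was highest in alveolar macrophage-like cells (1901.5 CPM).

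Class I presentation genes did not accompany class II in alveolar type 2-like cells. All 9 were at a log2 ratio of -1 or less there (median -2.32, against -0.31 over all genes), as were 26.3% of all genes. B2m, the class I light chain, was at 101 CPM in alveolar type 2-like cells (40.1% of cells with a UMI) against 913 CPM in dendritic-like, 850 in B-like and 735 in endothelial-like cells, and Psmb9, an immunoproteasome subunit, was at 4.95 CPM against 290, 105 and 112. Mesenchymal-like cells, at 288 CPM of B2m, were also low. The 20 most abundant genes made up 35.2% of the UMIs of alveolar type 2-like cells, against 14.1% to 18% in the other classes described, and with such genes left out of both totals 6 of the 9 were at -1 or less. In alveolar type 2-like cells the interferon gamma axis was at -1 or less for 8 of 8 genes, against 26.3% of all genes. These ratios rest on the same totals, with the abundant genes left in. Ifngr1, a chain of the receptor, was at 20.6 CPM there against 214 in dendritic-like and 129 in B-like cells, and Irf8 was at 5.77. In dendritic-like cells 4 of 9 class I genes reached 1, against 5.99% of all genes. So did 2 of 8 interferon gamma genes, Jak2 and Irf8, the latter itself on a dendritic marker list used here. In monocyte-like cells 6 of the 9 class I genes did, against 5.81% of all genes.

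**Figure D5:**
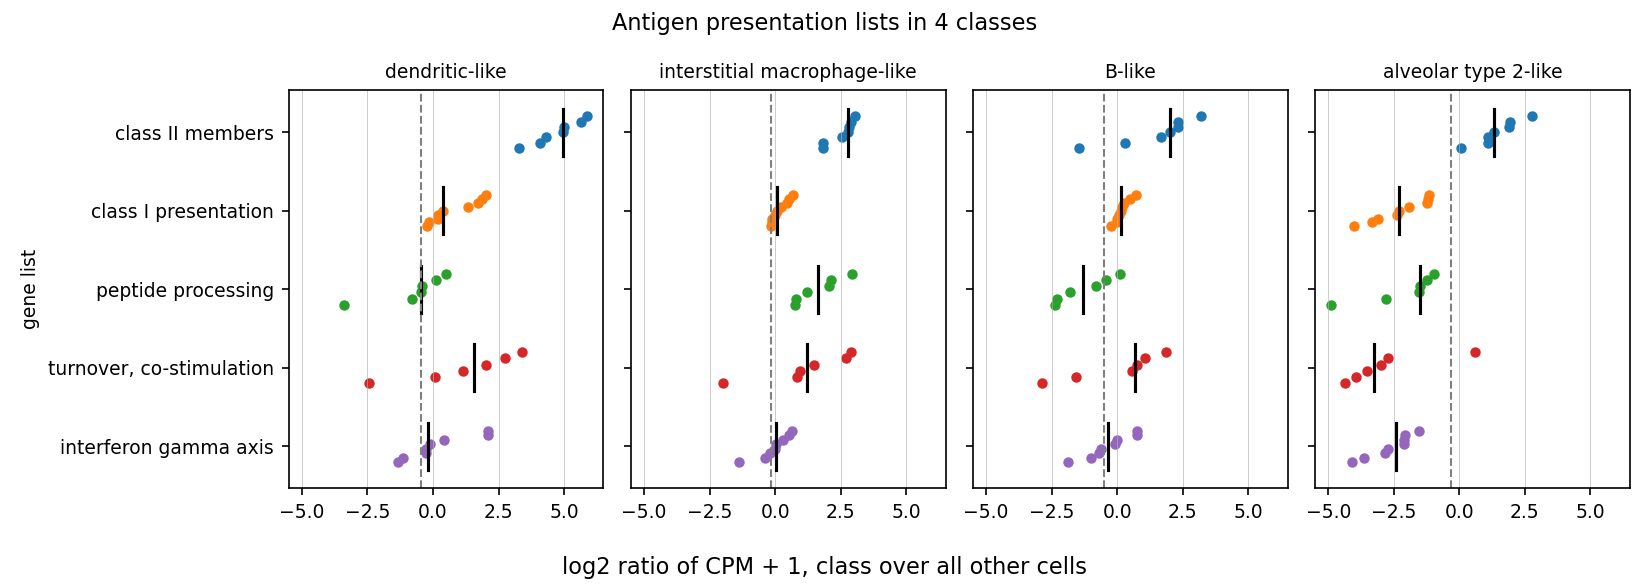
Log2 ratio of each gene of 5 lists in 4 classes over all other cells, 1 CPM added to both sides; points are genes, black bars list medians and dashed lines the median of all genes with at least 20 UMIs. In alveolar type 2-like cells the class II members lie at or above 0.05 and all 9 class I genes at -1.14 or less.

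Across the 34 clusters of at least 30 cells, each member followed the mean of the other 6 on the log2(CPM + 1) scale with Pearson correlations from 0.744 (H2-Eb1) to 0.949 (H2-Ab1). Those of H2-DMa and H2-DMb1 were 0.796 and 0.792. The clusters share 1 library and its free RNA, and the values are descriptions. The genes most like the mean of the 7 members were Fgd2 (0.801), H2-DMb2 (0.764), Tnip3 (0.743), AC127341.3 (0.740), Blnk (0.733), Pkib (0.730), Cd83 (0.724), 2310040G24Rik (0.697), Clec10a (0.692) and Rnase6 (0.689). Of these, Fgd2 was at 117 CPM in dendritic-like, 96.7 in B-like, 51.1 in alveolar type 2-like and 45.9 in interstitial macrophage-like cells, and at 44.8 CPM in monocyte-like cells. Blnk was at 251 CPM in B-like and 0.825 in alveolar type 2-like cells.

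In the bulk library of PDGFRA+ cells all 7 members were listed, at 0.13 to 32.91 TPM. H2-Aa had 11.69 TPM (11 to 12.4, exact 95% Poisson interval of its reads), H2-Ab1 11.31 (10.7 to 12) and H2-Eb1 6.09 (5.69 to 6.51). Cd74 had 32.91 TPM (31.8 to 34), H2-DMa 4.46 (4.14 to 4.79), H2-DMb1 3.04 (2.72 to 3.39) and Ciita 0.13 (0.0999 to 0.166, 63 reads). The members above the median listed gene (8.47 TPM) were H2-Aa, H2-Ab1 and Cd74, the last above 75.6% of listed genes. By reads, Cd74 alone was above the median. In bulk, fewer cells of a type and less RNA per cell cannot be told apart.

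Marker genes of the classes that carry class II were detected in the bulk library, and the part of such classes in these values was not tested. The summed TPM was 12 for B cell markers (6 of 7 listed), 70 for 6 and 6.33 for 5 listed markers of conventional dendritic cell types 1 and 2, 32.9 for 7 interstitial macrophage markers, 305 for 8 alveolar type 2 markers (211 from the highest) and 6079.5 for 8 myofibroblast markers. Sftpc, at 211 TPM, was above 95.9% of listed genes. Of the type 1 dendritic markers Naaa was at 38.26 TPM, Irf8 at 30 and Xcr1, the lowest, at 0.05. Naaa and Irf8 make up most of that sum, and mesenchymal-like single cells had 31.7 and 48.4 CPM of them. Among B cell markers Ebf1 was highest at 5.51 TPM, and mesenchymal-like single cells had 143 CPM of it, while Cd79a was at 2.33 TPM. These sums therefore do not measure the named classes alone. The mesenchymal-like cells of the single-cell library had 60.7 CPM of Cd74 and 23.3 of H2-Ab1, and their clusters are among those that set the background range. H2-Eb1 stood at 0.538 of the H2-Ab1 level in bulk TPM, which covers the whole transcript, and at 0.0328 in the UMIs of all kept single cells, which count 3′ ends. The H2-Aa ratio to H2-Ab1 was 1.03 and 0.624. The bulk and single-cell libraries hold different cells, and the part of the 3′ counting in this difference was not tested.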

How the data were processed

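The single-cell and bulk libraries were each 1 sample. The submitters' processing notes name Cell Ranger 5.0 and Seurat 3.2.2 for the cells (build not given in the sources used here). For bulk they name mm10, HISAT2 and featureCounts, with Trim Galore and DESeq2. The deposited single-cell values were treated as a score, whole-number UMI values that the authors had corrected for depth by a step not stated, since cell totals spanned 1.79-fold while detected genes spanned 709 to 3760. The plan had allowed for raw counts, and no count intervals were given for that reason. The authors' bulk table holds expected counts (15.9% not whole), TPM and FPKM per gene. Expected counts gave the Poisson intervals, TPM the levels, and FPKM was not used.

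Cells with at least 500 genes and at most 10% mitochondrial values were kept (646 left out), and 522 predicted doublets (4.9%) were removed by a score against simulated doublets. The score called 56.1% of the simulated doublets, so mixed droplets may remain. From 2000 variable genes, without mitochondrial, ribosomal, member and pathway genes, 30 components and a graph of 15 neighbours, Leiden at resolution 1 (leidenalg 0.10.2, Python 3.11.15) gave 36 clusters. Each was named from its mean marker score, relative to the best score of that type in any cluster, and within a lineage by the markers among its 10 leading genes. A name needed a score of at least 1, 3 or more markers detected, and every other lineage under 0.5 of that score. For interstitial macrophages the platelet lineage was exempt from this last rule, Pf4 being on both lists. No other lineage's type could have more markers among the 10 leading genes. The naming rule was settled after clusters had been seen. Cluster 15 (296 cells) stayed unnamed, with alveolar macrophage markers at 3.08 and endothelial markers at 1.87. Levels were compared as log2 ratios with 1 CPM added, over genes with at least 20 UMIs, and called at 1 or -1. Of these steps only the log2 ratio was tested on simulated data, with ratios planted in genes of at least 2000 UMIs. H2-Eb1 (383 UMIs) and Ciita (194) were below that number.

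The 7 members, the pathway lists and the markers were chosen with earlier results of these data known. Named were all members, all listed chains and factors with at least 20 UMIs, up to 4 genes of each other list with the largest range over classes, and the 10 genes most correlated with the members among those with at least 200 UMIs. Other genes named (sub-cluster leaders, class markers and Cd80) were chosen after their values were seen. Alternatives for the clustering were a stricter cell filter, doublets kept, another resolution, and member and pathway genes both allowed among the variable genes. Other alternatives were 10 CPM added, other minimum UMIs, means over cells, cells with another lineage's gene left out, and TPM for reads.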

Additional observations from a re-analysis of the deposited data

How the results depend on the processing

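No paired analysis was possible because each group held 1 sample, and for the same reason no replicate could be left out. Of 97 counts recomputed, 93 stayed within 1.5 times. The exceptions included 1 member at a log2 ratio of 1 or more in alveolar macrophage-like cells with 10 CPM added (2 before). Another was 0 of 7 in interstitial macrophage-like cells with member and pathway genes among the variable genes. The others were 3 members above the median gene in bulk TPM (1 by reads), and the lowest Cd74 level among dendritic-like sub-clusters. Of 399 log2 ratios, 349 moved by under 1.5 times, 41 moved further and 9 changed sign. All 9 did so with member and pathway genes among the variable genes. In alveolar macrophage-like cells, which then numbered 1680, they were H2-Aa 0.51, H2-Ab1 0.50, Cd74 0.21 and Ciita 0.04. In interstitial macrophage-like cells, which then numbered 103, they were H2-Aa -1.38, H2-Ab1 -1.09, H2-Eb1 -0.90, H2-DMb1 -0.30 and Ciita -2.17. With the stricter cell filter and at resolution 2 the same boundary moved less, to 144 and 167 interstitial macrophage-like cells, and H2-Ab1 in alveolar macrophage-like cells was at -1.41 and -1.04. Of 196 shares, 68 left their 95% interval, 43 of them when at least 2 UMIs were asked for. Without replicates nothing here measures variation between animals, and depth-corrected values do not show how many UMIs were read in a cell.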

Other observations

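Basophil or mast-like cells, a class of 151 cells outside those described, had 106 CPM of H2-Oa in 35.8% of cells, more than the 73 CPM of dendritic-like and 67.4 CPM of B-like cells. The same cells had no H2-Ob UMI, no Ciita UMI and 5.04 CPM of H2-DMb2. Their H2-Aa (36.6 CPM), H2-Ab1 (63 CPM) and Cd74 (242 CPM) levels were above the highest of the 22 background clusters. For each gene 1 cell held many of the UMIs: 15 of 29 for H2-Aa, 33 of 50 for H2-Ab1 and 66 of 192 for Cd74. The share of cells with an H2-Ab1 UMI was 6.62%, the same as in T-like cells. The smaller cluster of this class (23 cells) was inside the background range for all 3, so these levels do not show class II expression across the class. A count of 0 in 151 cells allows up to 1.99% of cells with an H2-Ob UMI, and the gene was found in 3.12% of B-like and 11.1% of dendritic-like cells, so the partner chain may be missed at this depth. H2-Oa overlaps an antisense gene (BC051537) in GENCODE M21, and its part in these UMIs was not tested.

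Ciliated-like cells, 24 in number, had an H2-Ab1 UMI in 50% of cells (exact 95% interval 29.1 to 70.9) and a Cd74 UMI in 58.3% (36.6 to 77.9), with 154 and 444 CPM. Alveolar type 1-like cells, 37 in number, had 346 CPM of Cd74 and 28 CPM of H2-Ab1 beside 6393.9 CPM of Sftpc. Lymphatic endothelial-like cells (32 cells) had 54.3 CPM of H2-Ab1, all 10 UMIs in 1 cell. The cell numbers limit what these values show.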
